A study of Mus musculus with 14 samples.

Results

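The genes described here are 9 members of the Wnt pathway, taken by symbol from a table of 32830 genes measured by RNA-seq in the cortex of 14-day-old mice. They are the DNA-binding factors Lef1, Tcf7, Tcf7l1 and Tcf7l2, the feedback targets Axin2, Nkd1 and Apcdd1, and the receptors Ror1 and Ror2. All 9 passed the filter on low values, a normalised read count of 10 in at least 2 libraries, as did 22575 genes in all. The mice were of the SW strain and carried Aldh1l1-GFP, a reporter in which regulatory sequence of the astrocyte gene Aldh1l1 drives green fluorescent protein. Upper and deep cortical layers had been separated by dissection, and 6 groups were made from them. These were upper layer astrocytes (GFP-positive sorted cells, 3 libraries), deep layer astrocytes (3 libraries), upper and deep layer non-astrocytes (GFP-negative sorted cells, 2 libraries each) and upper and deep layer bulk tissue (whole dissected layers, 2 libraries each). All 14 libraries came from animals of the same age and reporter strain, and no group had been treated. The labels do not say whether replicates came from separate animals or pools, so the p-values reflect the spread among these libraries alone, and that spread may be technical.

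In canonical Wnt signalling, a Wnt ligand bound to a Frizzled receptor and an Lrp co-receptor blocks the complex that destroys beta-catenin. Beta-catenin then enters the nucleus and joins TCF/LEF factors on DNA, where Axin2, Nkd1 and Apcdd1 are among the genes switched on as brakes on the same pathway. Ror1 and Ror2 are receptor tyrosine kinases that bind Wnt5a and act largely without beta-catenin. In the brain, this pathway is best known for forming and keeping the blood-brain barrier in endothelial cells, which use Lef1 and Apcdd1, and Tcf7l2 is also known from oligodendrocyte development.

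The libraries held 18226457 to 30316765 reads in genes. Values are normalised read counts, which are the reads of a gene divided by the size factor of its library. The summed level of 10 astrocyte markers was 1018000 to 1506000 in astrocytes, against 28550 to 35740 in non-astrocytes and 204300 to 243200 in bulk tissue. The non-astrocytes held few neuronal transcripts, with a sum over 10 neuron markers of 4544 to 10390 against 152500 to 184200 in bulk tissue. Microglia, mural, endothelial, fibroblast and new oligodendrocyte markers were all higher in the non-astrocytes than in bulk tissue, as were 6 of 7 oligodendrocyte precursor markers. Sorted cells had been dissociated with papain and bulk tissue is described as whole layers, so in comparisons with bulk tissue the fraction and the handling of sorted cells cannot be told apart.

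The promoters of Lef1, Axin2 and Ror2 are shown because Lef1 and Ror2 were called between the astrocyte layers and Axin2, which was not, is a widely used readout of Wnt activity. They are RefSeq windows on GRCm38.p6, from 250 bases before to 50 bases after a transcript start, printed 5′ to 3′ on the strand of the gene. Lef1 lies at chr3:131110047-131110346 (plus strand, the most upstream of its 4 listed starts), Axin2 at chr11:108920099-108920398 (plus strand) and Ror2 at chr13:53286075-53286374 (minus strand). Capitals mark CTTTG or its reverse complement CAAAG, the core of the sequence that TCF/LEF factors bind.
Lef1: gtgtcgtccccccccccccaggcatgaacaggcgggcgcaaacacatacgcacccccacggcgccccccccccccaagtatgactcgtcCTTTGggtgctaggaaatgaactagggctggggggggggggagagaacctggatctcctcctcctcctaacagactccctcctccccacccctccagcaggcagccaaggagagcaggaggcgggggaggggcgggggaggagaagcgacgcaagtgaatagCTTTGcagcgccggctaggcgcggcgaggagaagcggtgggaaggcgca
Axin2: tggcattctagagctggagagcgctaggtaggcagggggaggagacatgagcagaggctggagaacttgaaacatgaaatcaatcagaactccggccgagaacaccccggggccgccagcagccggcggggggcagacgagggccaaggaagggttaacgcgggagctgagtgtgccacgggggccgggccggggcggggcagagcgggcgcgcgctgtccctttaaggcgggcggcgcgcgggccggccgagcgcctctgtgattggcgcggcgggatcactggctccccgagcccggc
Ror2: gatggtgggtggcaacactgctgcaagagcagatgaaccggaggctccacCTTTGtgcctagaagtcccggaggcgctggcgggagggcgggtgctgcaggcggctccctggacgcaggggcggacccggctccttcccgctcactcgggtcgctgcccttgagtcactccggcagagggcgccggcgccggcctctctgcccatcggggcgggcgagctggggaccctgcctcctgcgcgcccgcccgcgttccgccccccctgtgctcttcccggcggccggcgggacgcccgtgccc
The table listed 13 such windows for 8 of the 9 genes, and none for Apcdd1. None of the 13 held CTTTGAA or CTTTGAT on either strand, 7-letter TCF/LEF motifs that 8.65% of all 32851 windows hold. The core CTTTG was searched after that result was known, and every CTTTGAA or CTTTGAT contains it. It occurred in 9 of the 13 windows and in 53.9% of all windows. Those 9 windows belong to 5 of the 8 genes, with all 4 Lef1 windows among them, so the windows are not independent. The Lef1 window shown overlaps another of them, at chr3:131110073-131110372. The Lef1 window shown held the core at 2 places and that of Ror2 at 1, while that of Axin2 held none. All 3 windows were rich in G and C, at 67.3% for Lef1, 70.0% for Axin2 and 74.7% for Ror2, against a median of 52.7%.

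Lef1, the TCF/LEF factor whose own gene is a Wnt target in many tissues, was higher in upper than in deep layer astrocytes. Its normalised read counts were 2002, 2282 and 1789 in upper layer astrocytes, against 912.3, 809.9 and 723.2 in deep layer astrocytes. Every upper layer library stood above every deep layer library, and 16.0% of all tested genes likewise had no overlap, in 1 direction or the other. The mean was 2024 ± 248 (SD, n = 3) against 815.2 ± 94.6 (SD, n = 3), a log2 difference of 1.31 with a standard error of 0.16 (limma, adjusted p = 0.00279). The tests on reads also called it (edgeR adjusted p = 0.00303, DESeq2 adjusted p = 8.82e-11). In this comparison 0.0797% of the tested genes were called, 18 in all, with 9 higher (0.0399%) and 9 lower (0.0399%), and Lef1 had the 4th smallest p. The call was lost when only the astrocyte libraries were fitted (adjusted p = 0.223) and narrowly without variance trend and robust moderation (adjusted p = 0.0519). Lef1 spans 131110471 to 131224356 on the plus strand of chromosome 3 (GRCm38), and 1208 bases of its exons overlap the antisense gene Gm43352, so reads of that gene could be counted with it if strand was not used.

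Outside the astrocytes, Lef1 was not called between layers. Non-astrocytes had 1870 and 1829 in upper layers, against 1436 and 1949 in deep layers, and these ranges overlapped (log2 difference 0.14, limma adjusted p = 1). Bulk tissue had 535.4 and 527.9 in upper layers, against 487.6 and 411.1 in deep layers, ranges that did not overlap but gave no call (log2 difference 0.25, limma adjusted p = 1). The layers of bulk tissue did not overlap for 43.8% of all tested genes. In bulk tissue, fewer cells of a type and less RNA per cell cannot be told apart. The contrast of these layer differences was itself tested. It was 1.17 ± 0.25 (SE) between astrocytes and non-astrocytes (limma adjusted p = 0.268, edgeR 0.219, DESeq2 0.0118) and 1.06 ± 0.25 (SE) between astrocytes and bulk tissue (limma adjusted p = 0.156, edgeR 0.156, DESeq2 0.0168). By limma, then, Lef1 is not shown to differ by layer more in astrocytes than in the other fractions.

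Markers of endothelial cells, which use Lef1, were set beside this result. The sum over 12 endothelial markers was 8896 to 10830 in upper layer astrocytes, against 6727 to 8598 in deep layer astrocytes, without overlap. Between 82.6% and 91.6% of that sum came from Slc2a1, a glucose transporter gene that is not restricted to endothelium. Without Slc2a1, a choice made after seeing the values, the sum was 1055 to 1428 in upper layer astrocytes, against 724.8 to 1183 in deep layer astrocytes and 42910 to 60690 in non-astrocytes. Cldn5, the tight junction gene of brain endothelium, was at 37.2 to 68.3 in upper layer astrocytes and 12.8 to 43.4 in deep layer astrocytes, against 2219 to 3938 in non-astrocytes. Between the astrocyte layers the 12 endothelial markers had a median log2 difference of 0.58, beside 0.01 for all genes, and 0 of the 12 were called. Pecam1 alone of the 12 had a lower mean in upper (312.9) than in deep layer astrocytes (327.9). Over both layers the 11 markers without Slc2a1 stood at 2.10% of their non-astrocyte level in the astrocyte libraries, while Lef1 stood at 80.2%. These shares pool the layers and do not describe a difference between them. The part of endothelial RNA in the layer difference was not tested beyond these values.

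**Figure D1:**
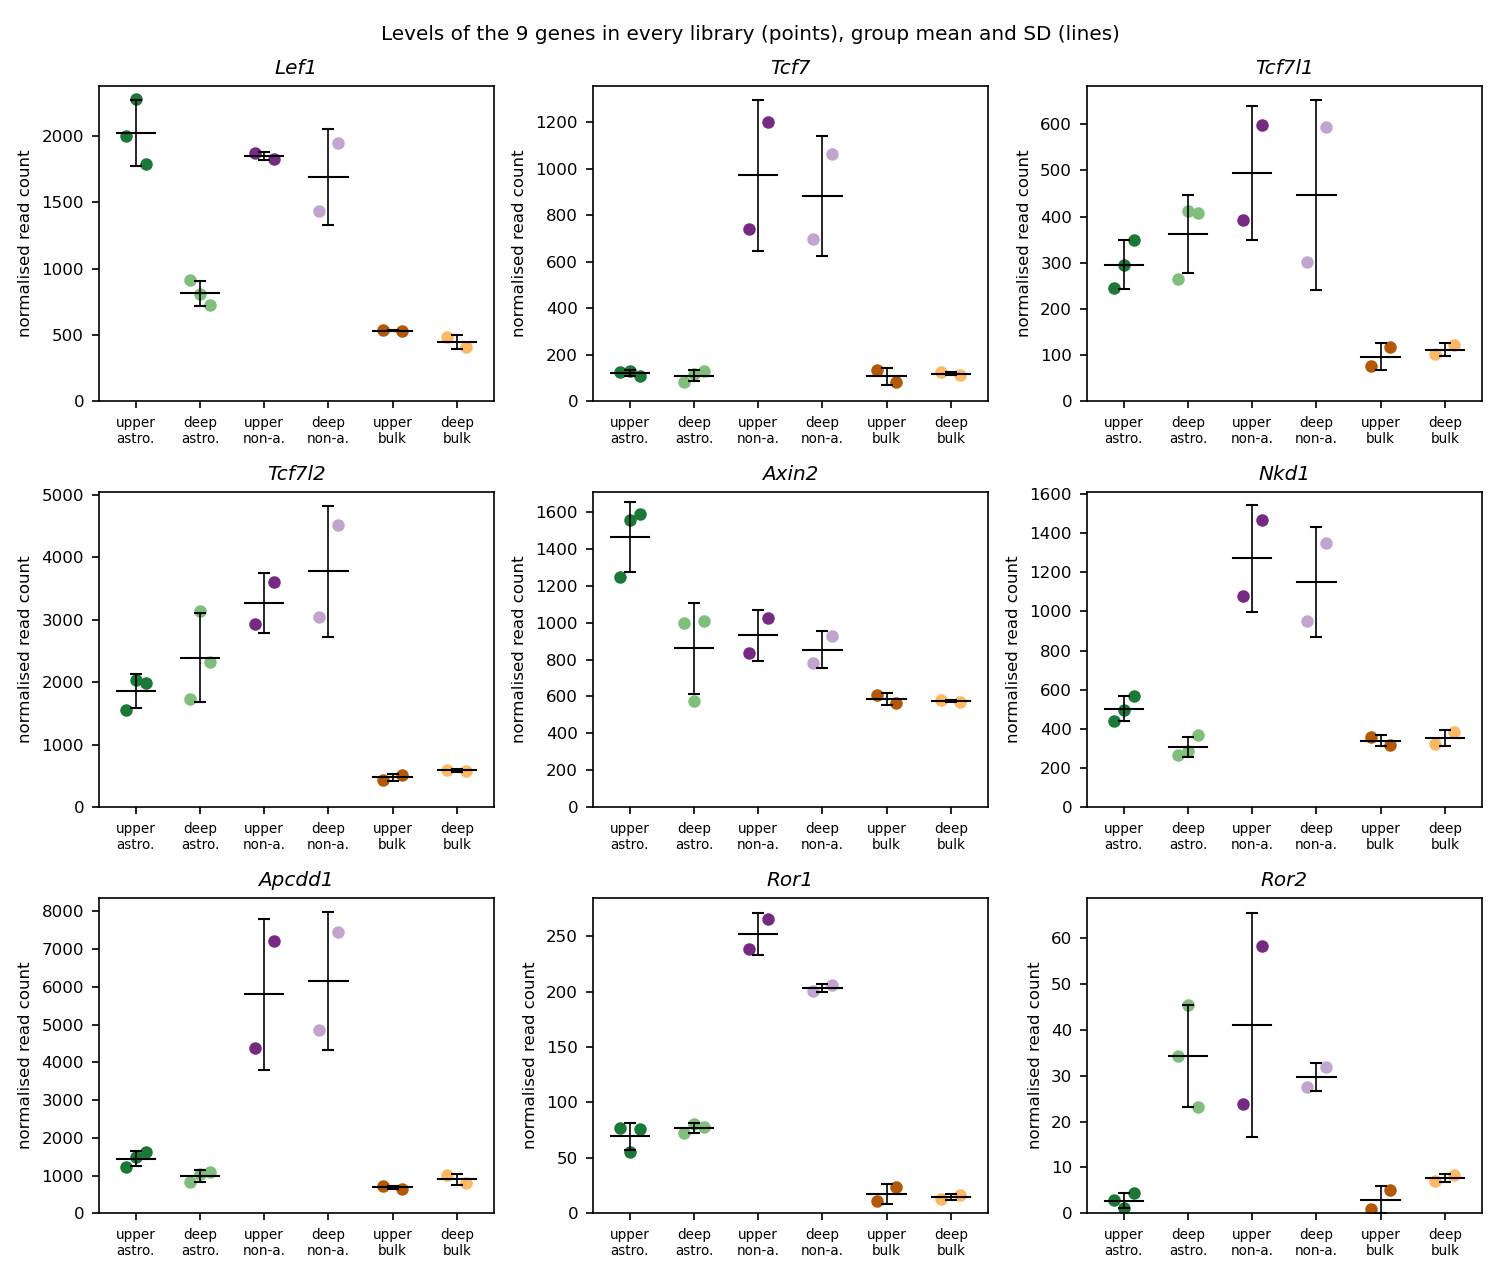
Normalised read counts of each gene (vertical axis, from 0, with its own scale per panel) in the 6 groups, with 1 point per library, a horizontal line at the group mean and a bar of 1 SD. In the panels for Lef1, Axin2, Nkd1 and Apcdd1 the upper layer astrocyte points lie above all deep layer astrocyte points, and in the panel for Ror2 they lie below, at 1.09 to 4.41 against 23.3 to 45.4.

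The other TCF/LEF factors were not called between the astrocyte layers. Tcf7, known from T cells, had 127.0, 131.9 and 109.1 in upper layer astrocytes, against 83.8, 117.7 and 130.1 in deep layer astrocytes. Tcf7l1, which mostly acts as a repressor, had 244.4, 294.3 and 349.3 in upper layer astrocytes, against 265.6, 412.8 and 408.1 in deep layer astrocytes. Tcf7l2 had 1552, 2038 and 1991 in upper layer astrocytes, against 1724, 3139 and 2318 in deep layer astrocytes. The ranges overlapped for all of Tcf7, Tcf7l1 and Tcf7l2, with log2 differences of 0.17 for Tcf7, -0.28 for Tcf7l1 and -0.33 for Tcf7l2 (limma adjusted p of 0.829 for Tcf7, 0.721 for Tcf7l1 and 0.577 for Tcf7l2). Their 95% intervals ran from -0.39 to 0.73 for Tcf7, from -0.88 to 0.33 for Tcf7l1 and from -0.79 to 0.12 for Tcf7l2, below the interval of Lef1 (0.97 to 1.65). No test compared the genes with each other.

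Per kilobase of exon, which sets levels of different genes roughly side by side, Lef1 and Tcf7l2 overlapped in upper layer astrocytes. The length used joins all annotated exons of a gene, not those of the transcripts expressed, so the order between genes is approximate. There Lef1 was at 230.4 ± 28.2 and Tcf7l2 at 212.0 ± 30.6 normalised counts per kb (SD, n = 3), and in replicate 3 Tcf7l2 (226.9) was above Lef1 (203.5). In deep layer astrocytes Lef1 was at 92.8 ± 10.8 and Tcf7l2 at 272.8 ± 81.0 (SD, n = 3). Tcf7l1 and Tcf7 averaged at most 92.3 per kb in the astrocytes of either layer. Exons of Tcf7l1 overlap those of Gm15401 over 179 bases. In non-astrocytes the order was Tcf7l2 (401.3), Tcf7 (353.2), Lef1 (201.5) and Tcf7l1 (120.0), as means over 4 libraries. Before division by length, Lef1 (1771) was above Tcf7 (927.0) there.

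Axin2, Nkd1 and Apcdd1 leaned the same way as Lef1 in astrocytes, without passing the test. Axin2, a scaffold of the beta-catenin destruction complex and a widely used readout of Wnt activity, had 1247, 1556 and 1588 in upper layer astrocytes, against 996.1, 577.3 and 1008 in deep layer astrocytes. Nkd1, an inhibitor that binds Dishevelled, had 443.0, 499.2 and 568.6 in upper layer astrocytes, against 269.1, 287.9 and 366.9 in deep layer astrocytes. Apcdd1, a membrane inhibitor of Wnt signalling, had 1238, 1485 and 1632 in upper layer astrocytes, against 821.4, 1053 and 1098 in deep layer astrocytes. For each of these genes every upper layer library lay above every deep layer library.

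The log2 differences were 0.80 ± 0.20 for Axin2, 0.71 ± 0.19 for Nkd1 and 0.55 ± 0.21 for Apcdd1 (SE). The limma adjusted p was 0.197 for Axin2, 0.228 for Nkd1 and 0.424 for Apcdd1. The labels do not say what a library number stands for. Same-numbered upper and deep layer astrocyte libraries were taken as pairs from weak correlations in these data (0.149 to 0.203). The block built on the numbers also paired non-astrocyte and bulk tissue libraries. With it, Nkd1 (limma adjusted p = 0.0393) and Apcdd1 (adjusted p = 0.0419) passed the test while Axin2 (adjusted p = 0.0707) did not. DESeq2 called Axin2 alone of the 3 (adjusted p = 0.0495, against 0.0800 for Nkd1 and 0.300 for Apcdd1). The 12 endothelial markers had a median log2 difference of 0.58 in the same comparison, beside 0.01 for all genes, and 0 of the 12 were called. Their part in the differences of Axin2, Nkd1 and Apcdd1 was not tested. The deep layer library with 577.3 sets much of the size for Axin2. Without that library, deep layer astrocytes replicate 2, the log2 difference was 0.54. Exons of Axin2 overlap those of the antisense gene Gm11670 over 209 bases, and that gene was at 15.6 to 82.8 in astrocytes.

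Counted over the 9 genes, 1 (Lef1) was called higher and 1 (Ror2) lower in upper layer astrocytes by limma without the block. With the assumed pairing as a block, which called 188 genes, Nkd1 and Apcdd1 were called higher as well. The groups did not overlap for 5 of the 9 genes, against 16.0% of all tested genes. The 9 genes were chosen with earlier results of these data known, so this count is no test of the set. In non-astrocytes the layers did not overlap for 1 of the 9, Ror1, against 25.5% of all genes. In bulk tissue they did not overlap for 4 of the 9, against 43.8% of all genes. None of the 9 was called between layers of non-astrocytes, where limma called 0.00443% of genes (1 gene, with 871 at an unadjusted p under 0.05, 7 by edgeR and 139 by DESeq2). None was called between layers of bulk tissue, where limma called 0.456% of genes, 0.159% higher and 0.297% lower (103 in all, with 1639 at an unadjusted p under 0.05, 167 by edgeR and 428 by DESeq2).

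**Figure D2:**
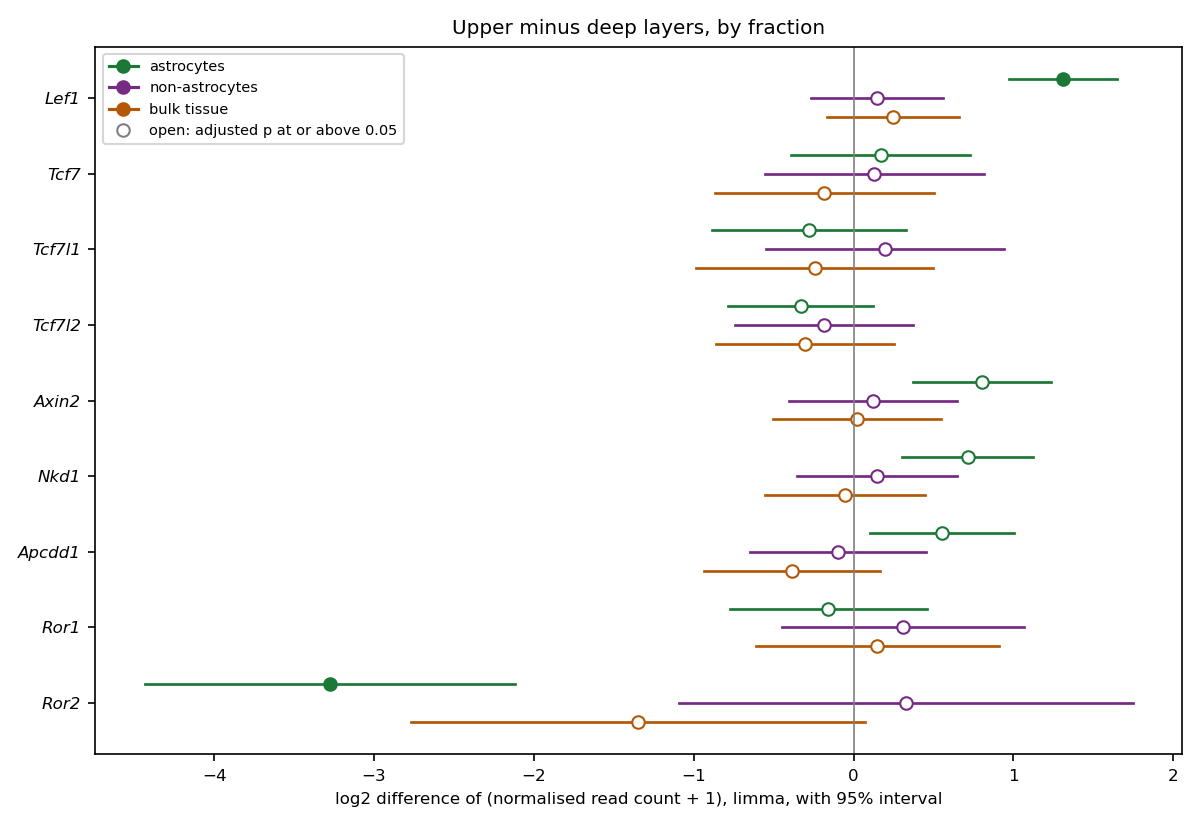
Log2 difference of upper against deep layers (horizontal axis, points, with 95% intervals as lines) for each gene in astrocytes, non-astrocytes and bulk tissue, filled where the limma adjusted p was below 0.05. Lef1 at 1.31 and Ror2 at -3.28 in astrocytes are the only filled points.

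Apcdd1 had opposite signs in astrocytes and in bulk tissue, and neither difference was called by limma without the block. Bulk tissue had 716.1 and 652.1 in upper layers, against 1002 and 798.2 in deep layers, without overlap, as for 43.8% of all genes there (log2 difference -0.39, limma adjusted p = 0.957). In non-astrocytes the layers overlapped, with 4377 and 7217 in upper layers against 4866 and 7450 in deep layers. Its layer difference in astrocytes exceeded that in bulk tissue by 0.94 ± 0.33 (SE, limma adjusted p = 0.430). With the replicate numbers as a block the limma adjusted p was 0.0425. That block also pairs bulk tissue libraries by number, for which there were too few pairs to take the numbers as pairs. In that comparison, without the block, limma called 0.137% of genes, 0.0797% higher and 0.0576% lower.

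Ror2 went the other way from Lef1 and was close to undetected in upper layer astrocytes. Ror2, the receptor for Wnt5a known from limb and palate development in mice, had 2.86, 1.09 and 4.41 in upper layer astrocytes, from 3, 1 and 4 reads. Deep layer astrocytes had 34.2, 45.4 and 23.3, from 29, 32 and 22 reads. The 2 groups did not overlap, as for 16.0% of all tested genes. Pooled over libraries, deep over upper layers gave a ratio of 11.9 (95% exact interval 5.78 to 28.5, counting error only). The log2 difference of (count + 1) was -3.28 ± 0.54 (SE, limma adjusted p = 0.0319, edgeR 0.0389, no DESeq2 value), the largest in size of the 18 called genes. The call rests on few reads. It was lost in 9 of 14 fits that left out 1 library, with adjusted p from 0.0264 to 0.122, and with a pseudocount of 0.5 (adjusted p = 0.0581), without trend and robust moderation (0.0820) and with only the astrocyte libraries fitted (0.286), while the direction held in all of these. The libraries whose removal lost it were each of upper layer astrocytes 1, 2 and 3, deep layer astrocytes 1 and 2, and the 4 deep layer libraries of non-astrocytes and bulk tissue. Without upper layer astrocytes replicate 2, the library with 1 read, the log2 difference was -2.90 (adjusted p = 0.122).

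In bulk tissue Ror2 had 0.92 and 5.01 in upper layers, against 7.05 and 8.31 in deep layers. These were 1 and 5 reads against 6 and 9 reads, and the comparison was not called (log2 difference -1.35, limma adjusted p = 0.738). In non-astrocytes it had 23.8 and 58.3 in upper layers, against 27.5 and 31.8 in deep layers, which overlapped. The layer difference of astrocytes differed from that of non-astrocytes by -3.60 ± 0.86 (SE, limma adjusted p = 0.359, DESeq2 0.0242). In that comparison limma called 0.00443% of genes (1 gene, with 1350 at an unadjusted p under 0.05).

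Ror1, its paralogue, was not called between the layers of astrocytes. It had 77.3, 55.6 and 76.0 in upper layer astrocytes, against 72.0, 80.9 and 78.2 in deep layer astrocytes (log2 difference -0.16, 95% interval -0.78 to 0.46), and the ranges overlapped. Deep layer astrocytes thus held 13.4 ± 0.79 counts per kb of Ror1 and 8.08 ± 2.61 of Ror2, while upper layer astrocytes held 12.1 ± 2.12 of Ror1 and 0.66 ± 0.39 of Ror2 (SD, n = 3). Transcripts of myelinating oligodendrocytes moved with the same side as Ror2. The sum over 11 of their markers was 3832 to 5078 in upper layer astrocytes, against 5133 to 6315 in deep layer astrocytes, and 1 of the 11, Mbp, was called lower in upper layers. Taken singly, the 11 markers had a median log2 difference of -1.07 there, beside 0.01 for all genes. In non-astrocytes that sum was 55820 to 64370 in upper layers, against 118900 to 163000 in deep layers. The part of oligodendrocyte RNA in the Ror2 result was not tested.

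Between the sorted fractions, most of the 9 genes were lower in astrocytes than in non-astrocytes. Limma called 7 of the 9 lower and none higher, in a comparison that called 66.3% of all genes, 36.8% lower and 29.6% higher. Tcf7 showed the widest gap, with a range of 83.8 to 131.9 (median 122.4) in astrocytes, against 699.2, 743.2, 1065 and 1201 in non-astrocytes. Its log2 difference was -2.96 ± 0.21 (SE, limma adjusted p = 5.01e-09). Apcdd1 followed, with 821.4 to 1632 (median 1168) in astrocytes, against 4377, 4866, 7217 and 7450 in non-astrocytes (log2 -2.29). The groups did not overlap for Tcf7 or Apcdd1.

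Ror2 (log2 -1.64), Ror1 (log2 -1.62), Nkd1 (log2 -1.61) and Tcf7l2 (log2 -0.74) were also called lower in astrocytes, with adjusted p from 1.71e-07 for Nkd1 to 0.00333 for Ror2. Lef1 was called lower by 0.46 on the log2 scale (adjusted p = 0.00440), with 723.2 to 2282 (median 1350) in astrocytes against 1436, 1829, 1870 and 1949 in non-astrocytes. Tcf7l1 (log2 -0.49, adjusted p = 0.0687) and Axin2 (log2 0.31, adjusted p = 0.0967) were not called. Tcf7l1 was called lower with the replicate block (log2 -0.60, adjusted p = 0.00382), with library totals (0.00862) and by DESeq2 (0.0403). Axin2 was called higher by edgeR (0.0315) and with TMM factors (0.0447).

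For Lef1, Axin2 and Ror2 a call was made in a single layer only. In upper layers Lef1 was not called (log2 0.12, limma adjusted p = 0.587), and in deep layers it was lower in astrocytes (log2 -1.04, adjusted p = 1.34e-04). Axin2 was higher in astrocytes within upper layers (log2 0.65, adjusted p = 0.0234) and not called within deep layers (log2 -0.03, adjusted p = 0.922). Ror2 was lower in astrocytes within upper layers (log2 -3.45, adjusted p = 1.97e-04), while in deep layers the log2 difference was 0.16 (adjusted p = 0.843). By limma, these layer-specific values are not shown to differ between layers. The limma test of the contrast itself did not pass for Lef1 (adjusted p = 0.268), Axin2 (0.799) or Ror2 (0.359). It did not pass by edgeR either (adjusted p = 0.219 for Lef1, 0.759 for Axin2 and 0.203 for Ror2). DESeq2 called the contrast for Lef1 (adjusted p = 0.0118) and Ror2 (0.0242) but not for Axin2 (0.753), so this result depends on the method.

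Against bulk tissue, limma called 7 of the 9 genes higher in astrocytes, in a comparison that called 64.8% of genes, 28.8% higher and 36.1% lower. Ror1 led with 55.6 to 80.9 in astrocytes, against 11.1, 12.9, 16.6 and 24.04 in bulk tissue (log2 2.16 ± 0.23 SE, adjusted p = 6.90e-07). Tcf7l2 (log2 1.97), Tcf7l1 (log2 1.64), Lef1 (log2 1.39), Ror2 (log2 1.01), Axin2 (log2 0.92) and Apcdd1 (log2 0.61) followed. The call of Ror2 was marginal (adjusted p = 0.0497) and was lost by edgeR (0.0925) and DESeq2 (0.116). Without upper layer bulk tissue replicate 1 the log2 difference of Ror2 was 0.60 (adjusted p = 0.258). Tcf7 (log2 0.04, adjusted p = 0.876) and Nkd1 (log2 0.17, adjusted p = 0.328) were not called. Within single layers, some calls held in 1 layer only. In deep layers Apcdd1 (log2 0.14, adjusted p = 0.649) and Axin2 (log2 0.53, adjusted p = 0.0578) were not called, nor was Ror2 in upper layers (log2 0.05, adjusted p = 0.954), where Nkd1 was (log2 0.56, adjusted p = 0.0419). Tcf7 had 83.8 to 131.9 in astrocytes, against 82.1 to 134.6 in bulk tissue, an overlap that spans both ranges.

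Non-astrocytes exceeded bulk tissue in all 9 genes, by limma, which called 61.6% of genes in that comparison, 30.5% higher and 31.1% lower. The log2 difference was 3.78 for Ror1, 3.00 for Tcf7, 2.89 for Apcdd1, 2.71 for Tcf7l2, 2.66 for Ror2, 2.13 for Tcf7l1, 1.85 for Lef1, 1.78 for Nkd1 and 0.61 for Axin2. The smallest of these, Axin2, had an adjusted p of 0.00672. Endothelial, mural and microglia markers rose in the same comparison, 12 of 12, 10 of 10 and 10 of 10 called higher in non-astrocytes, and neuron markers fell in 10 of 10. Fibroblast markers rose in 8 of 8, new oligodendrocyte markers in 6 of 6 and oligodendrocyte precursor markers in 6 of 7. Of 11 myelinating oligodendrocyte markers, 4 were called higher and 2 lower. The part of these shifts in the levels of the 9 genes was not tested.

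**Figure D3:**
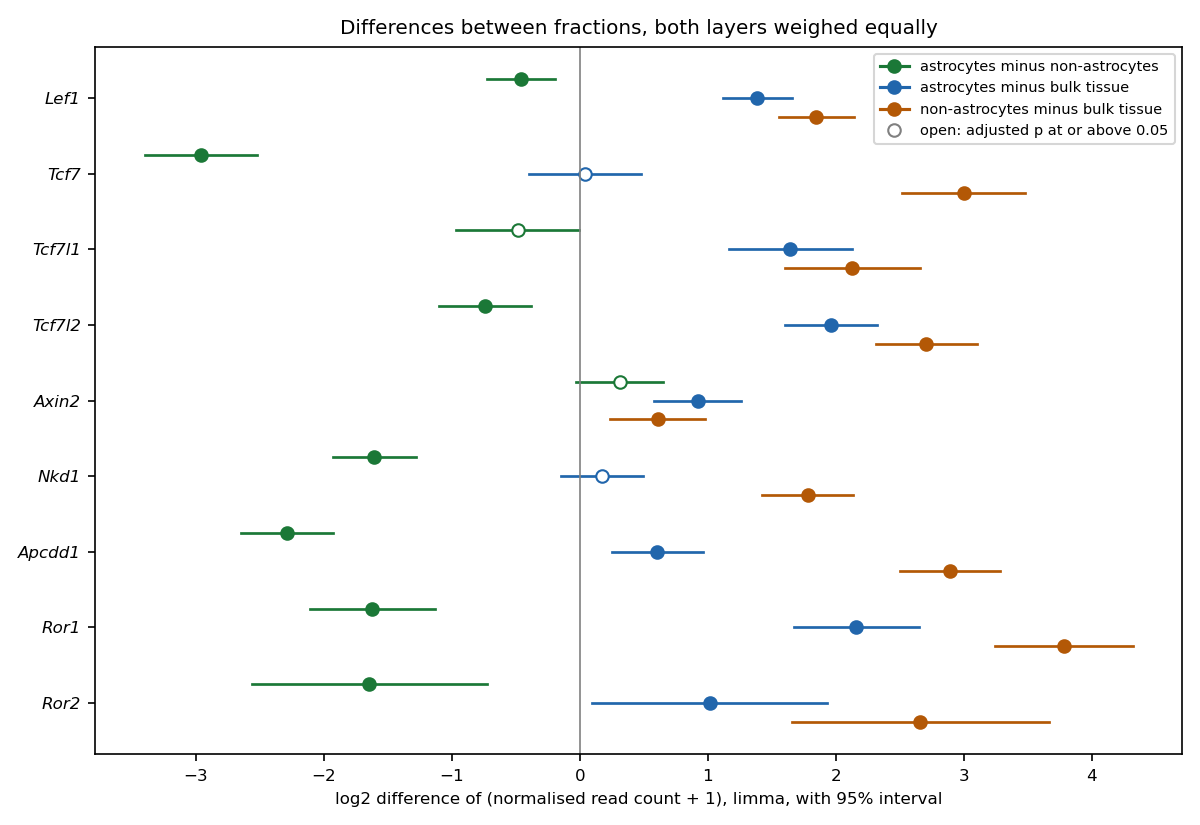
Log2 difference between fractions over both layers (horizontal axis, points, with 95% intervals as lines) for each gene, filled where the limma adjusted p was below 0.05. Points for astrocytes against non-astrocytes lie left of 0 except for Axin2 at 0.31, and all points for non-astrocytes against bulk tissue lie right of 0.

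The spread among non-astrocyte libraries was shared between genes. In both layers, the library numbered 2 was higher than the library numbered 1 for 8 of the 9 genes, Lef1 being the exception, against 41.9% of all tested genes. Endothelial markers without Slc2a1 moved with it, at 54960 in library 2 and 42910 in library 1 of upper layers, and 60690 in library 2 and 45070 in library 1 of deep layers. Other lists were spread too. Oligodendrocyte precursor markers ran from 17390 to 28850 in upper and 22080 to 36810 in deep layers. New oligodendrocyte markers ran from 36540 to 58530 in upper and 45500 to 65620 in deep layers. Which library was higher is not given here for these lists. For Apcdd1 the libraries numbered 2 had 7217 and 7450, and those numbered 1 had 4377 and 4866.

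The level of the 9 genes in astrocytes was set beside that of other cells' markers. Summed microglia markers in astrocytes were at 1.17% of their non-astrocyte level, mural markers at 2.07%, B cell markers at 3.31%, fibroblast markers at 4.51%, myelinating oligodendrocyte markers at 5.00% and neuron markers at 8.46%. New oligodendrocyte markers were at 12.5%, oligodendrocyte precursor markers at 13.2% and the 12 endothelial markers, Slc2a1 included, at 13.7%. Ependymal and choroid plexus markers, low in every group, were at 120% (100.7 to 179.8 in astrocytes and 81.8 to 154.3 in non-astrocytes). Tcf7 was at 12.6%, Apcdd1 at 20.4%, Ror1 at 32.2%, Nkd1 at 33.5%, Ror2 at 52.4%, Tcf7l2 at 60.4% and Tcf7l1 at 69.9%. T cell markers, the cells for which Tcf7 is best known, were at 14.2% in sum, with Cd3e at 0 in all 6 astrocyte libraries. The list did not go 1 way. Of its 6 tested markers, limma called 3 lower and 1 higher in astrocytes, and 2 were not called. For Tcf7, whose astrocyte level is close to several of these shares, and for the other genes, the part of other cells' RNA was not tested.

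**Figure D4:**
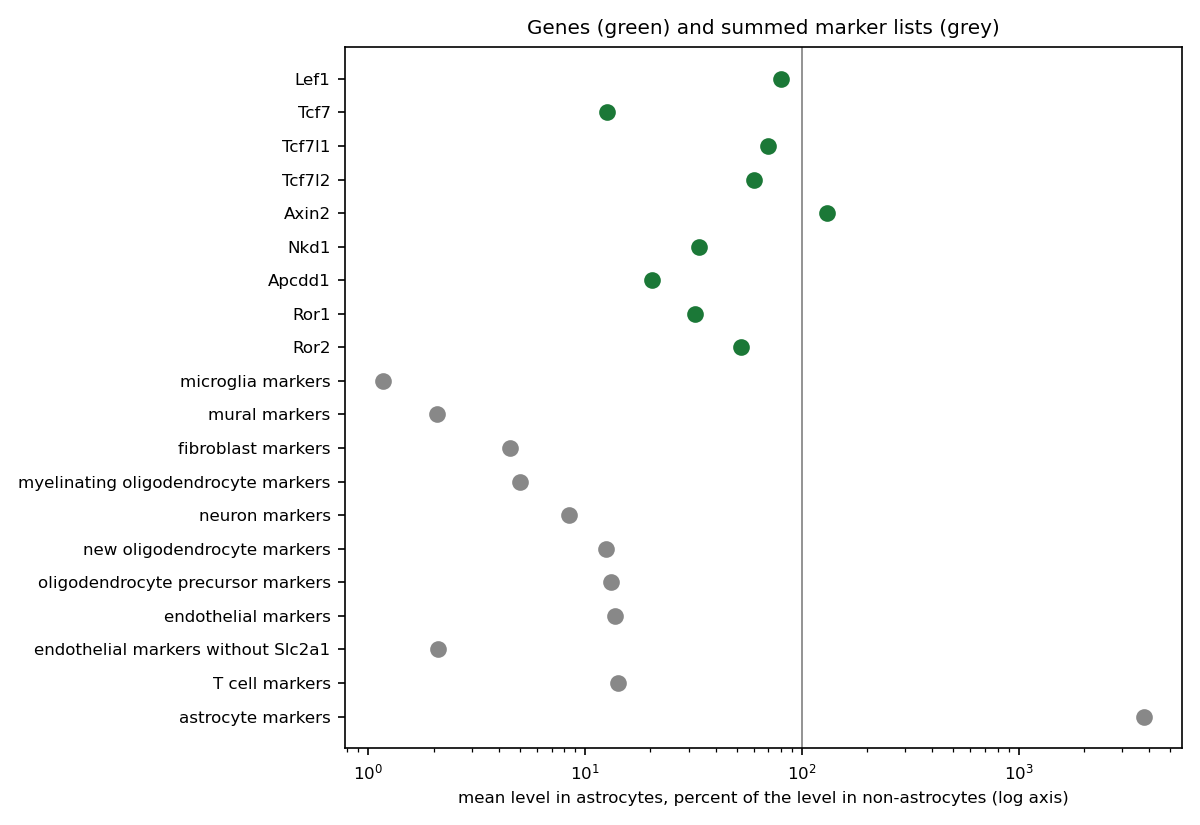
Mean level in astrocytes as a percent of the mean level in non-astrocytes (log axis) for the 9 genes and for summed marker lists of other cell types, with a line at 100. The 9 genes lie at 12.6% (Tcf7) to 130% (Axin2). The 9 lists shown for cells other than astrocytes lie at 1.17% (microglia) to 14.2% (T cells), a range that holds Tcf7. Endothelial markers are shown again without Slc2a1, at 2.10%. Not shown are B cell markers (3.31%) and ependymal and choroid plexus markers (120%).

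The order of the groups summarises each gene. Lef1 was highest in upper layer astrocytes (2024) and in the non-astrocytes (1849 in upper and 1693 in deep layers), whose ranges overlapped, then deep layer astrocytes (815.2), upper layer bulk tissue (531.7) and deep layer bulk tissue (449.3). Axin2 was highest in upper layer astrocytes (1464), above all other groups without overlap, while upper layer non-astrocytes (930.7), deep layer astrocytes (860.4) and deep layer non-astrocytes (854.2) overlapped. Tcf7, Tcf7l1, Tcf7l2, Nkd1, Apcdd1 and Ror1 were highest in the non-astrocytes. Ror2 was similar in upper layer non-astrocytes (41.1), deep layer astrocytes (34.3) and deep layer non-astrocytes (29.7), and lowest in upper layer astrocytes (2.79) and upper layer bulk tissue (2.97).

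Genes with the most similar profiles were found by Pearson correlation over the 14 libraries, which share fraction and layer, among 15915 genes. Lef1 was most like Acacb (r = 0.946), Cdkn2c (0.945), Comtd1 (0.943), Zic2 (0.938) and Spry1 (0.935). Tcf7l1 was most like its paralogue Tcf7l2 (0.974). Apcdd1 was most like Ptbp1 (0.991), Nkd1 like Grn (0.982), Axin2 like Traf7 (0.953) and Ror1 like Map3k20 (0.983). The nearest to Ror2 was Hhip (0.863), a hedgehog-binding protein gene, which also had the smallest p between the astrocyte layers (log2 -2.48). These values describe the profiles and carry no test.

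The rest of the pathway was counted by role. Over all tested genes, 29.6% were higher and 36.8% lower in astrocytes than in non-astrocytes, and 28.8% were higher and 36.1% lower than in bulk tissue, and each list's counts stand against these shares. Of the genes named with a log2 difference between fractions, the largest limma adjusted p was 8.47e-05 against non-astrocytes (Dvl2) and, apart from the genes of ligand release, 0.00158 against bulk tissue (Bcl9). Of 24 ligand genes 17 were tested, and 5 were higher and 4 lower in astrocytes than in non-astrocytes. Ndp, which encodes Norrin, a ligand of Fzd4, averaged 1205 ± 271 in astrocytes (SD, n = 6) against 28.4 ± 7.80 in non-astrocytes (SD, n = 4), a log2 difference of 5.37. Wnt7a averaged 1969 ± 284 in astrocytes against 73.2 ± 31.6 in non-astrocytes (log2 4.82), and Wnt7b 776.2 ± 215 against 54.7 ± 22.9 (log2 3.85). Wnt7a, Wnt7b and Norrin are the ligands known to drive barrier formation in the brain and retina. Wnt5a, the ligand of the Ror receptors, was lower in astrocytes, at 221.4 ± 48.5 against 434.4 ± 51.3 in non-astrocytes (log2 -0.99). Against bulk tissue 3 ligands were higher and 11 lower in astrocytes, among them Wnt9a (log2 -5.20), while Wnt7a (log2 3.67) and Ndp (log2 2.96) were higher. Wnt9a was low in astrocytes, at 11.3 ± 2.16 against 463.3 ± 151 in bulk tissue. Wnt2 had no read in any astrocyte library, against 25.8 to 78.1 in bulk tissue. The median log2 difference of the ligands was -0.34 against non-astrocytes and -1.54 against bulk tissue, beside -0.08 and -0.10 for all genes.

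Ligand release differed as well. Porcn, the enzyme that adds the lipid to Wnts, was higher in astrocytes, at 858.9 ± 161 against 406.0 ± 51.6 in non-astrocytes (log2 1.07). Wls, the carrier that takes Wnts to the surface, was lower, at 463.3 ± 236 against 1427 ± 245 (log2 -1.74). Against bulk tissue the signs were the opposite, with 858.9 ± 161 in astrocytes and 1472 ± 132 in bulk tissue for Porcn, and 463.3 ± 236 in astrocytes and 243.5 ± 45.5 in bulk tissue for Wls (adjusted p = 7.33e-05 for Porcn and 0.0193 for Wls). The call of Wls was lost within upper layers (0.101), within deep layers (0.0965) and without bulk tissue replicate 1 of upper (0.0773) or deep layers (0.0732).

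Of 20 receptor genes tested, 11 were higher and 5 lower than in non-astrocytes, and 16 were higher and 4 lower than in bulk tissue, beside 29.6% higher and 36.8% lower, and 28.8% higher and 36.1% lower, of all genes. The median log2 difference of the receptors was 0.67 against non-astrocytes and 1.91 against bulk tissue. Lgr6 (log2 5.13), Fzd10 (log2 4.90), Lgr4 (log2 3.95) and Fzd1 (log2 3.89) had the smallest p against non-astrocytes. Lgr4 and Lgr6 bind R-spondins, which raise the response to Wnts, and Fzd1 and Fzd10 are Frizzled receptors. Fzd1 averaged 6055 ± 1170 in astrocytes, against 403.7 ± 55.3 in non-astrocytes and 514.6 ± 74.3 in bulk tissue. Ryk, a receptor-like kinase that also binds Wnts, was higher than in bulk tissue (log2 2.03), as were Fzd1 (log2 3.54), Lgr6 (log2 3.57) and Lgr4 (log2 2.96).

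Of 13 secreted inhibitors tested, 4 were higher and 7 lower than in non-astrocytes, beside 29.6% and 36.8% of all genes. Dkk3 (log2 3.17) and Sfrp1 (log2 2.85) were higher, and Sfrp2 (log2 -5.22) and Frzb (log2 -3.01) lower, all of them antagonists or related to antagonists of Wnts. Against bulk tissue Sfrp1 (log2 2.04) and Dkk3 (log2 1.31) were higher and Frzb (log2 -5.02) lower, and Wif1 had no read in any astrocyte library, against 10.6 to 22.2 in bulk tissue. Dkk3 was also the inhibitor called between layers, lower in upper layer bulk tissue with 1483 and 1765 against 3900 and 3949 in deep layer bulk tissue (log2 -1.28, adjusted p = 0.0235). In astrocytes it averaged 8308 ± 1600 in upper layers against 4822 ± 1060 in deep layers, and its layer differences differed between astrocytes and bulk tissue by 2.07 (adjusted p = 0.0130). That call was lost without any 1 of the 4 bulk tissue libraries (adjusted p from 0.0816 to 0.162), and Dkk3 in bulk tissue likewise (0.138 to 0.303). Both calls were also lost without trend and robust moderation (0.0690 for the contrast and 0.0899 in bulk tissue).

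In the cytoplasm, 3 of 12 genes were higher and 4 lower than in non-astrocytes, near the 29.6% and 36.8% of all genes. Ctnnb1, which encodes beta-catenin, averaged 2476 ± 379 in astrocytes, against 9408 ± 1370 in non-astrocytes and 8029 ± 1330 in bulk tissue (log2 -1.93 and -1.69). Apc2 (log2 2.22) and Amer1 (log2 1.38), both of the destruction complex, were higher in astrocytes than in non-astrocytes, and Dvl2, a Dishevelled gene, was lower (log2 -1.05). Against bulk tissue Amer1 was higher (log2 1.37), and Gsk3a, a kinase of the complex (log2 -2.52), and Apc, its scaffold (log2 -2.19), were lower.

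Among 9 nuclear cofactors, 3 were higher and 2 lower than in non-astrocytes, beside 29.6% and 36.8% of all genes. The Groucho corepressor genes took different directions, with Tle3 lower (log2 -2.30) and Tle4 (log2 1.22) and Tle1 (log2 0.88) higher. Pygo1, a coactivator of beta-catenin, was higher too (log2 0.99). Against bulk tissue Tle3 (log2 -1.38) and Bcl9 (log2 -0.52) were lower and Tle4 (log2 1.29) and Tle1 (log2 0.93) higher. Between layers of bulk tissue Tle4 was lower in upper layers, with 606.0 and 627.6 against 2006 and 2452 in deep layers (log2 -1.84, adjusted p = 1.37e-04), while Tle3 (log2 1.01) and Tle1 (log2 0.96) were higher. In astrocytes Tle4 averaged 2828 ± 141 in upper layers and 2889 ± 219 in deep layers, and its layer difference there differed from that of bulk tissue by 1.82 (adjusted p = 0.00570). That of Tle3 differed by -1.38 (adjusted p = 0.0254). The contrast of Tle4 lost its call without upper layer bulk tissue 1 or 2 or deep layer bulk tissue 1 (adjusted p up to 0.0638), and that of Tle3 without any bulk tissue or upper layer astrocyte library (up to 0.252). Leaving out 1 library lost the layer call of Tle3 at any bulk tissue library and of Tle1 at any bulk tissue or upper layer astrocyte library, with adjusted p up to 0.290 for Tle3 and 0.507 for Tle1. Without trend and robust moderation Tle1 (0.0895), Tle3 (0.0516) and the contrast of Tle3 (0.0704) lost their calls, as did Tle1 with library totals (0.184).

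Further target genes gave the other astrocyte layer call. Tnfrsf19, a receptor gene known as a Wnt target and also called Troy, had 10176, 12520 and 14518 in upper layer astrocytes as lowest, median and highest, against 6327, 6330 and 6722 in deep layer astrocytes. These did not overlap, as for 16.0% of all tested genes, with a log2 difference of 0.93 ± 0.15 (SE, limma adjusted p = 0.0279, edgeR 0.0277, DESeq2 4.98e-06). It lost the call in 7 of 14 fits without 1 library, namely upper layer astrocytes 2 or 3, deep layer astrocytes 1 or any bulk tissue library, with adjusted p up to 0.116. The call was also lost without trend and robust moderation (0.154) and with only the astrocyte libraries fitted (0.410). It was the 1 of 9 such targets called there. Across fractions, 3 of the 9 targets were higher and 4 lower than in non-astrocytes, near the 29.6% and 36.8% of all genes. Znrf3, a feedback ligase that removes Frizzled receptors, averaged 9740 ± 1400 in astrocytes against 1368 ± 127 in non-astrocytes (log2 2.82). Sox17, an endothelial factor, averaged 21.6 ± 13.2 in astrocytes against 724.1 ± 21.7 in non-astrocytes (log2 -5.24), and Nkd2, the paralogue of Nkd1, was lower as well (log2 -2.66). Tnfrsf19 itself was higher in astrocytes than in non-astrocytes (log2 2.31) and bulk tissue (log2 1.99), and Znrf3 (log2 2.92), Myc (log2 2.15) and Kremen1 (log2 1.96) were higher than in bulk tissue.

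Of 9 planar polarity genes, 5 were higher and 3 lower in astrocytes than in non-astrocytes, beside 29.6% and 36.8% of all genes. Daam2, a formin that works with Dishevelled, averaged 23800 ± 3510 in astrocytes, against 2603 ± 179 in non-astrocytes and 2692 ± 214 in bulk tissue. Its log2 difference was 3.18 against non-astrocytes and 3.13 against bulk tissue. Celsr2 (log2 2.16) and Daam1 (log2 1.24) were higher and Prickle1 (log2 -2.65) lower than in non-astrocytes, and Prickle2 (log2 -3.46), Prickle1 (log2 -3.63) and Celsr3 (log2 -4.20) were lower than in bulk tissue. No gene of the ligand, secretion, receptor, inhibitor, cytoplasm, cofactor or polarity lists was called by limma between the astrocyte layers, in a comparison where limma called 18 genes, 2334 genes had an unadjusted p under 0.05, and edgeR called 17 and DESeq2 142. Exons of Wnt5a, Wnt7b, Sfrp2, Ctnnb1, Apc2, Gsk3a, Dvl2, Tle1, Sox17 and Celsr3 overlap those of another gene, so their counts are uncertain to that extent.

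**Figure D5:**
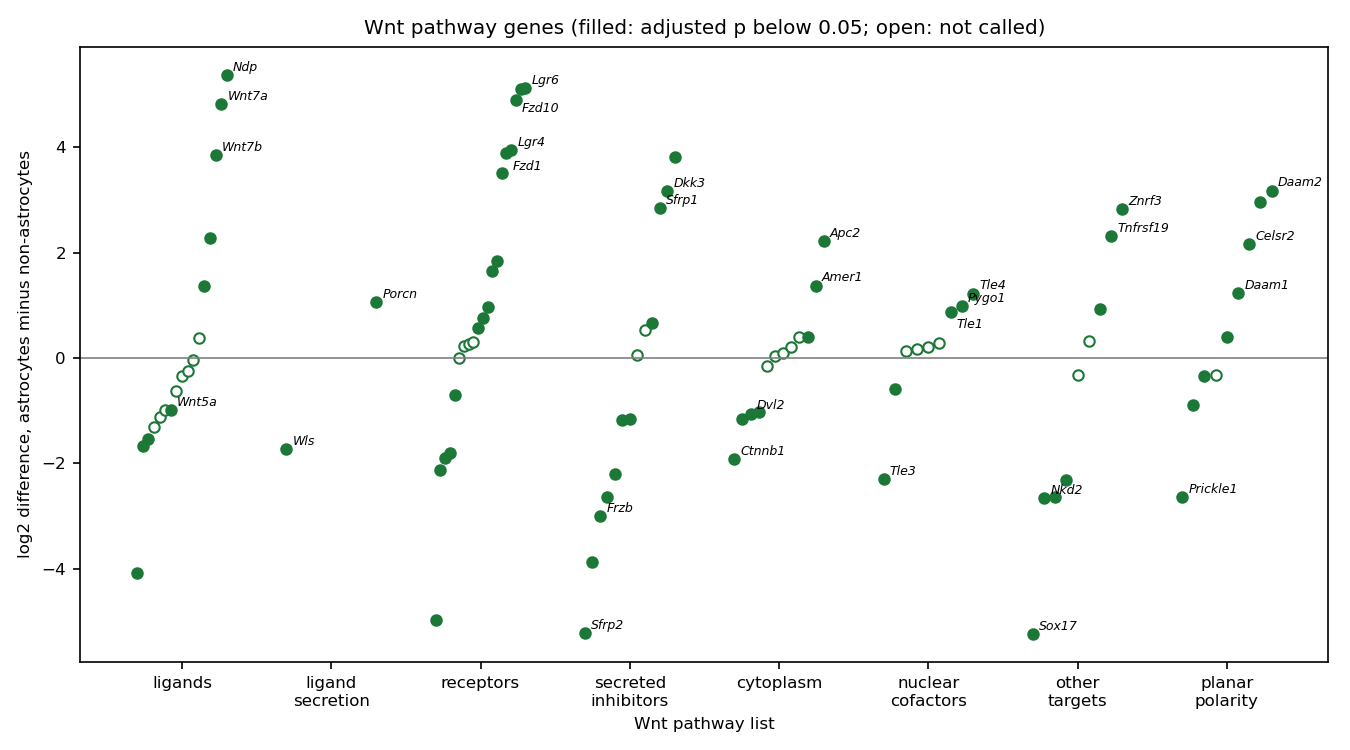
Log2 difference of astrocytes against non-astrocytes (vertical axis) for each tested gene of the 8 Wnt pathway lists (horizontal axis), filled where the limma adjusted p was below 0.05, with the genes of smallest p in each list named. Filled points lie on both sides of 0 in every list, from Ndp at 5.37 to Sox17 at -5.24.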

How the data were processed

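RNA-seq was analysed in 14 libraries of mouse cortex in 6 groups, read from the sample titles. Where the characteristics of both upper layer sorted groups name bulk tissue instead, the titles were followed. Per the labels' protocols, cells were sorted by GFP after papain dissociation, and RNA was amplified with the NuGEN RNA-Seq V2 kit and sequenced single-end. The lane of each library is not stated there. The tools named are DESeq2, HTSeq 0.6.1p1, TopHat2 2.0.11 and CASAVA, with build GRCm38, per the submitters' processing notes. The deposited values are a signal, namely gene counts divided by a size factor per library (0.705 to 1.30). Divided by what 1 read is worth in its library, 100% of values came out whole within 1e-06, and these reads were used for count tests. EdgeR called 17 genes between the astrocyte layers on them. Whether counting used strand is not given in the sources used here.

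Genes with a value of 10 or more in at least 2 libraries were tested (22575 of 32830). The leading test was limma 3.58.1 (R 4.3.3, intensity trend, robust moderation) on log2(value + 1), with 6 group means and 8 residual degrees of freedom. P-values are two-sided and Benjamini-Hochberg adjusted within each of 8 comparisons, with calls made below an adjusted p of 0.05. Differences on this scale understate the change of low genes. On the recovered reads edgeR 4.0.16 and DESeq2 1.42.0 were run as alternatives, and the code was tested on simulated data. Intervals of read ratios cover counting error only. Other alternatives were scaling, pseudocount, filter, moderation, fitting only the groups compared, a replicate block, single layers, and each library left out. Coordinates, exon lengths and overlaps are from GENCODE M21 (GRCm38), matched by identifier for 32007 genes. Tables and plots were made with Python 3.11.15, pandas 2.3.3 and matplotlib 3.10.9.

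Same-numbered upper and deep layer astrocyte libraries deviated together from their group means over genes (correlations 0.203, 0.149 and 0.171 in 3 pairs), so the numbers were taken to pair them. This comes from the data, since the labels do not say what a number stands for. The 9 genes and all lists were chosen with earlier results of these data known. Within the Wnt lists, genes are named by the 4 smallest p against non-astrocytes and against bulk tissue, and where called between layers. 1 gene among the similar profiles is not reported here.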

Additional observations from a re-analysis of the deposited data

Results flagged for a closer look

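Ror1 stood out in the library of upper layer astrocytes replicate 2, at 55.6, against 72.0 to 80.9 in the other 5 astrocyte libraries. Its gap to the nearest library was 0.649 of the whole range. Of 27 sets of libraries examined in this way (9 genes in 3 fractions) this was the only such library, and chance marks about 1 in 20. The layers did not overlap for Apcdd1 in astrocytes or in bulk tissue, and the 2 differences had opposite directions. Neither was called by limma without the block. The layers did not overlap for 16.0% of all tested genes in astrocytes and 43.8% in bulk tissue. The share of genes with opposite directions and no overlap in both was not counted. The ratio of means of upper over deep layers was 1.47 in astrocytes and 0.760 in bulk tissue. The test of that difference did not pass without the replicate block (limma adjusted p = 0.430).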

How the results depend on the processing

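Of 1193 values of the 9 genes under alternatives, 1133 kept direction and side of the threshold, 33 lost a call, 18 gained it and 9 changed sign, none of these 9 past the threshold afterwards. Of 1818 values of the named Wnt list genes, 1768 kept both and 50 lost the call. Changes of sign with layers taken singly were Lef1 (0.12, upper layers) and Axin2 (-0.030, deep) and Ror2 (0.16, deep) in astrocytes against non-astrocytes, and Tcf7 (-0.14, deep) and Nkd1 (-0.21, deep) in astrocytes against bulk tissue. Without 1 library, the layer difference in non-astrocytes ran from -0.076 to 0.364 for Lef1 and from -0.30 to 0.96 for Ror2, and Tcf7 in astrocytes against bulk tissue from -0.14 to 0.22.

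The number of genes called between astrocyte layers (18) was 142 by DESeq2, 4 without trend and robust moderation, 1 with only the groups compared, 188 with the replicate block and 12 to 56 without 1 library. Between non-astrocyte layers (1) it was 7 by edgeR, 139 by DESeq2, 2 with a pseudocount of 5, 13 with no filter, 11 without trend and robust moderation, 0 with only the groups compared, 33 with the block and 0 to 12 without 1 library. Between bulk tissue layers (103) it was 167 by edgeR, 428 by DESeq2, 231 with a pseudocount of 5, 1093 with only the groups compared, 261 with the block and 11 to 216 without 1 library. For the layer difference of astrocytes against that of non-astrocytes (1) it was 59 by DESeq2, 0 with library totals or with only the groups compared, 2 without trend and robust moderation, 4 with the block and 0 to 2 without 1 library. Against that of bulk tissue (31) it was 49 by edgeR, 200 by DESeq2, 74 with a pseudocount of 5, 112 with the block and 0 to 72 without 1 library. The cause of these changes was not tested. The 3 counts between fractions stayed within 1.5 times under every alternative run.

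The replicate block also ended the call of Ror2 in astrocytes against bulk tissue (log2 0.98, adjusted p = 0.0820), and the calls it gave to Nkd1, Apcdd1 and Tcf7l1 stand in the text above. It changed no other call among the 46 results of the 9 genes that were recomputed. The remaining layer results of single genes were not recomputed. Same-numbered non-astrocyte libraries of the layers correlated at 0.436 and bulk tissue libraries at 0.0937, with too few pairs to take the numbers as pairs. Scaling to library totals moved the median of all genes from -0.08 to -0.25 in astrocytes against non-astrocytes and from -0.04 to 0.32 in non-astrocytes against bulk tissue, with no change of sign among the named genes. The filter at 50 dropped Ror2. Depth limits Ror2 most, with 8 reads over the 3 upper layer astrocyte libraries.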
